A study of Homo sapiens with 6 samples.

Results

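The genes described here encode the core proteins of the splicing machinery and its most abundant regulators in RKO cells, a human colorectal cancer cell line. Members were all entries whose symbol starts with SRSF, HNRNP, SF3A, SF3B, SNRP, SNRNP or U2AF, whose description does not name a pseudogene, and whose mean over the 6 samples was at least 1 FPKM (a level of fragments corrected for gene length and library depth). Of the 264 entries with such symbols, 194 were pseudogenes and 8 of the other 70 had a mean below 1 FPKM, which left 62 members among 13945 genes that passed the same minimum and 61204 entries in all. SNRPN, SRSF12, HNRNPCL1, HNRNPCL2, HNRNPCL3, HNRNPCL4 and HNRNPUL2-BSCL2 were listed at 0 in every sample, and U2AF1L4 stood just below the minimum with a mean of 0.659 FPKM. The lowest member was HNRNPA1L2 at a mean of 3.41 FPKM, so no member stood near the minimum.

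RNA was sequenced from 3 samples of RKO cells transfected with siANP32B, a small interfering RNA against ANP32B, and from 3 samples transfected with the control siRNA siCtrl, at 100 pmol in both groups. The labels give the cells as ANP32B knockdown and ANP32B wild type. ANP32B encodes an acidic leucine-rich histone chaperone of the nucleus, and the comparison asked which transcripts differ after its knockdown. Only this 1 cell line was sequenced. Whether the replicates were grown and transfected separately is not said in the labels or methods, and the p-values reflect sample-to-sample spread that could be technical. In bulk RNA of this kind, fewer cells of a type and less RNA per cell cannot be told apart.

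ANP32B itself was at 72.5, 53.9 and 75.3 FPKM in the siANP32B samples, against 429, 466 and 452 FPKM in the siCtrl samples, which is 15.0% of the control mean. Totals recovered from the steps of the FPKM values were 14577044 to 16393123 fragments in siANP32B samples and 14304093 to 18987041 in siCtrl samples. The epithelial genes KRT8, KRT18 and EPCAM and the intestinal factor CDX2 were above 10 FPKM in all 6 samples, whereas KRT19 was listed at 0 and CDH1, VIL1 and LGALS4 stayed at or below 0.287 FPKM, so several defining markers of colon epithelium were absent or nearly so. Of 3 immune markers PTPRC and CD3E were at 0, and CD68 had 0.641, 1.17 and 0.499 FPKM in siANP32B samples, against 0.341, 0.113 and 0 FPKM in siCtrl samples. The endothelial marker VWF had 0.157 to 0.257 FPKM in siANP32B samples, against 0.523 to 0.820 FPKM in siCtrl samples, and PECAM1 and CDH5 stayed at or below 0.213 FPKM. Both CD68 and VWF lay without overlap between the groups, below the minimum for testing. Of 3 fibroblast genes COL1A2 and PDGFRB stayed at or below 0.254 FPKM, while COL1A1 had 1.12 to 2.02 FPKM in siANP32B samples, against 2.83 to 4.16 FPKM in siCtrl samples (limma adjusted p = 0.0121). The part of these marker genes in the results was not tested. The nucleolar gene FBL set siCtrl 2 and siCtrl 3 apart: they had 20.4 and 16.3 FPKM, against 208 FPKM in siCtrl 1 and 282 to 303 FPKM in the siANP32B samples. The main counts are therefore also given with siCtrl 1 as the only control.

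Splicing removes introns from precursor mRNA in a spliceosome assembled from small nuclear ribonucleoproteins (snRNPs). U1 recognises the 5′ splice site, U2 with its SF3A and SF3B complexes binds the branch site, U2AF reads the 3′ splice site, and the U4/U6.U5 tri-snRNP then joins for catalysis, while a minor spliceosome with U11 and U12 removes a rare class of introns. SR proteins (the SRSF genes) and hnRNP proteins bind exons and introns and often act in opposite directions on the choice of splice site.

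After ANP32B knockdown, 30 of the 62 genes fell and 8 rose (48.4% and 12.9%; limma on log2(FPKM + 1), Benjamini-Hochberg adjusted p under 0.05), and 24 did not pass the test. The background over all 13945 genes was 24.6% lower and 14.6% higher. The genes that fell included 13 of 21 hnRNP genes, 7 of 11 SR genes and 3 of 3 U11/U12 genes, whereas 5 of the 8 genes that rose encode SF3A or SF3B subunits. Because the members are abundant, a background of abundant genes was added after the data were seen: among the 2984 genes whose mean reached 50 FPKM, 29.5% fell and 30.1% rose, against 21 (44.7%) and 7 (14.9%) of the 47 members at that level. Most changes were small. By more than 1.5-fold, 4 members fell (6.45%; SNRNP27, SNRPA, SNRPE and HNRNPA1) and 0 rose. The background was 6.61% for called falls and 2.28% for called rises of that size, so the share of such falls lay near the background. The median log2 fold change was −0.14 over the members and −0.06 over all genes tested.

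**Figure D1:**
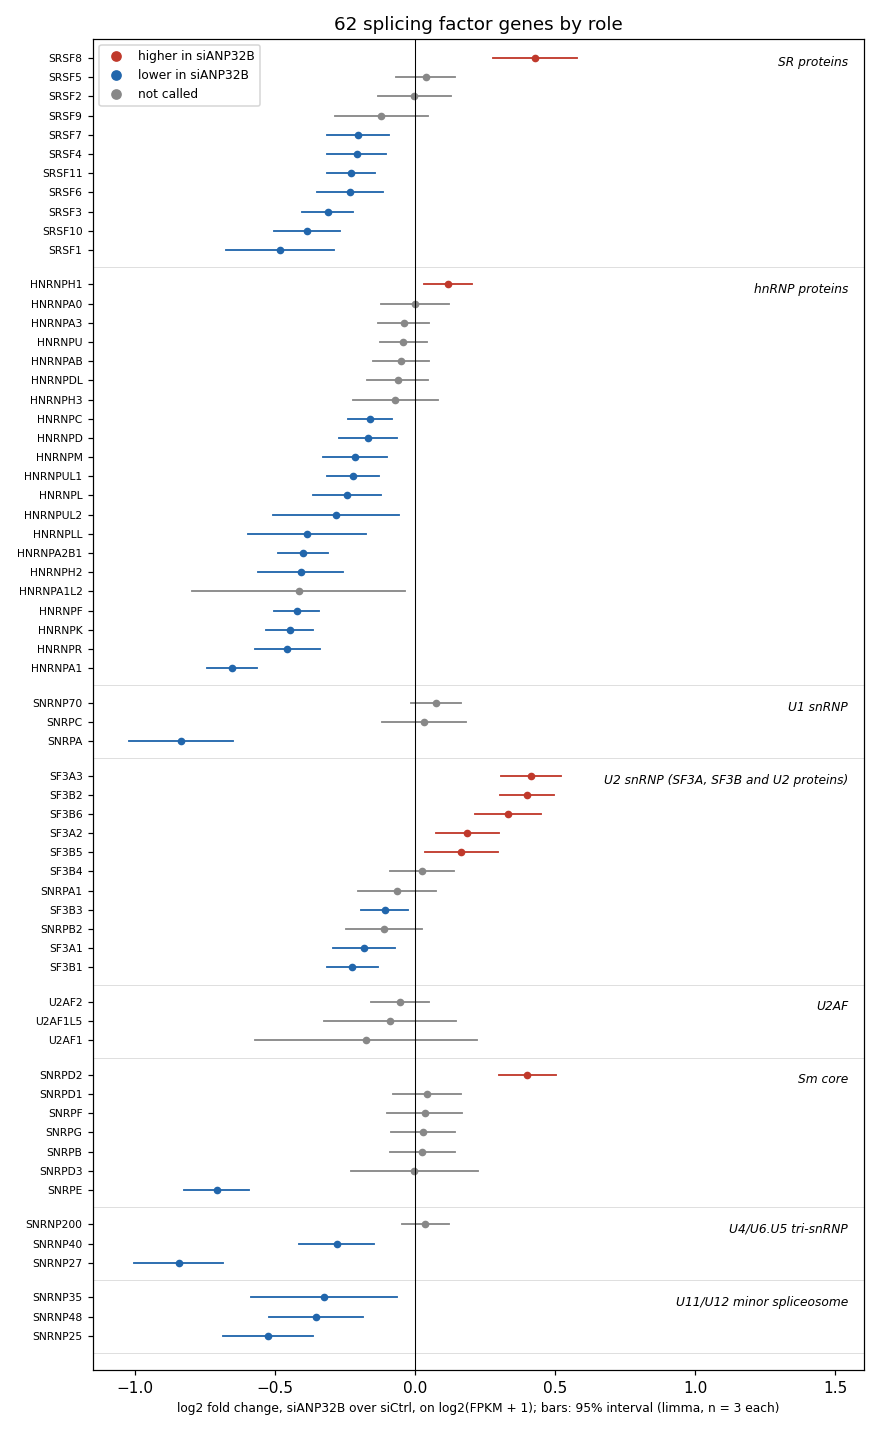
Log2 fold change (siANP32B over siCtrl, on log2(FPKM + 1); horizontal axis) of each of the 62 genes, grouped by role, with bars for the 95% interval of the limma fit (n = 3 samples in each group). Red marks the 8 genes that rose, blue the 30 that fell and grey the 24 that did not pass the test; blue points fill most of the SR and hnRNP blocks, and 5 of the 8 red points lie in the U2 snRNP block.

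**Figure D2:**
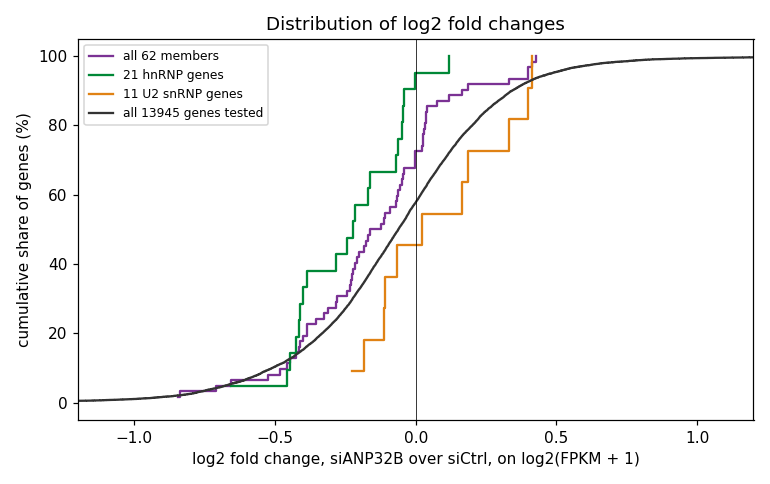
Cumulative share of genes (%, vertical axis) at or below each log2 fold change (siANP32B over siCtrl, on log2(FPKM + 1)) for all 62 members, the 21 hnRNP genes, the 11 U2 snRNP genes and all 13945 genes tested. The hnRNP curve lies to the left of the curve of all genes over most of its range (median −0.22 against −0.06), and the U2 snRNP curve reaches furthest right at its middle (median 0.02).

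In 31 members every siANP32B sample was below every siCtrl sample and in 8 every one was above of the 62, against a background of 31.8% and 19.3% of all genes. For a single gene of 3 against 3 samples, an exact two-sided permutation test cannot give a p below 0.1, so the calls rest on the variance that limma shares across genes. The called gene SNRNP35 was the exception whose groups overlapped. HNRNPA1L2 and U2AF1L5 were lower in all 3 siANP32B samples but did not pass the test. With median-of-ratios size factors the median of all genes was 0.00, against −0.06 without them, and the members gave 21 lower and 9 higher with a median of −0.07 (background 18.4% lower and 19.3% higher). Among all called genes this scaling put 51.2% on the higher side, against 37.1% without it. With siCtrl 1 as the only control, 17 members fell and 6 rose, and the background was 13.6% lower and 8.67% higher. The falls were then 6 of 21 hnRNP, 4 of 11 SR and 2 of 3 U11/U12 genes, since HNRNPC, HNRNPD, HNRNPH2, HNRNPLL, HNRNPM, HNRNPUL1, HNRNPUL2, SRSF4, SRSF6, SRSF7 and SNRNP35 no longer passed the test, and the U2 snRNP genes gave 4 higher and 1 lower. In that fit a single control stands for the group.

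The summed level of the hnRNP genes was 3673 ± 13.6 FPKM in siANP32B samples, against 4541 ± 130 FPKM in siCtrl samples (mean ± S.D., n = 3 each), or 80.9% of control. HNRNPA1, an RNA-binding protein that represses exon inclusion at many sites, had the highest level of all members. It was at 756, 726 and 770 FPKM in siANP32B samples, against 1146, 1229 and 1173 FPKM in siCtrl samples. The groups were well separated, with a log2 fold change of −0.66 ± 0.04 (SE; limma adjusted p = 6.61e-06), and without HNRNPA1 the hnRNP sum was 87.0% of control. HNRNPK, which binds C-rich RNA and DNA, was the second most abundant of the 62 genes. It was at 342, 326 and 329 FPKM in siANP32B samples, against 445, 468 and 449 FPKM in siCtrl samples, and fell by 0.45 ± 0.04 on the log2 scale (limma adjusted p = 3.03e-05).

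HNRNPF and HNRNPH2 are paralogues that bind runs of G and influence exons near them. HNRNPF was at 151, 149 and 147 FPKM in siANP32B samples, against 197, 204 and 200 FPKM in siCtrl samples (log2 fold change −0.42 ± 0.04, limma adjusted p = 3.22e-05). HNRNPH2 was at 22.5, 21.1 and 22.8 FPKM in siANP32B samples, against 27.8, 31.9 and 29.6 FPKM in siCtrl samples (−0.41 ± 0.07, limma adjusted p = 0.00132). Both fell without overlap between the groups, but their paralogue HNRNPH1 rose slightly. HNRNPH1 was at 265, 269 and 258 FPKM in siANP32B samples, against 236, 250 and 244 FPKM in siCtrl samples (0.12 ± 0.04, limma adjusted p = 0.0371), a call that was lost without siANP32B 1, siANP32B 2, siCtrl 1 or siCtrl 3. HNRNPR, a relative of the synaptotagmin-binding RNA protein SYNCRIP, was at 79.9, 76.9 and 79.2 FPKM in siANP32B samples, against 108, 116 and 102 FPKM in siCtrl samples, a fall of 0.46 ± 0.05 on the log2 scale (limma adjusted p = 0.000165).

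The other hnRNP genes that fell were HNRNPA2B1 (log2 fold change −0.40), a close relative of HNRNPA1, HNRNPLL (−0.39) and HNRNPL (−0.24), which bind CA-rich RNA, HNRNPUL2 (−0.28), HNRNPUL1 (−0.22), HNRNPM (−0.21), HNRNPD (−0.17), a binder of AU-rich elements, and HNRNPC (−0.16), which binds U tracts. HNRNPH3, HNRNPDL, HNRNPAB, HNRNPU, HNRNPA3 and HNRNPA0 did not pass the test, with log2 fold changes between −0.07 and −0.00. HNRNPA1L2, a near-identical intronless copy of HNRNPA1, stood at 1.96, 3.30 and 3.15 FPKM in siANP32B samples, against 3.76, 4.33 and 3.93 FPKM in siCtrl samples (limma adjusted p = 0.0793). Its reads cannot be told apart with certainty from those of HNRNPA1, and its values rest on as few as 44 fragments. Under median-of-ratios scaling HNRNPC, HNRNPD, HNRNPM and HNRNPUL2 no longer passed the test.

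**Figure D3:**
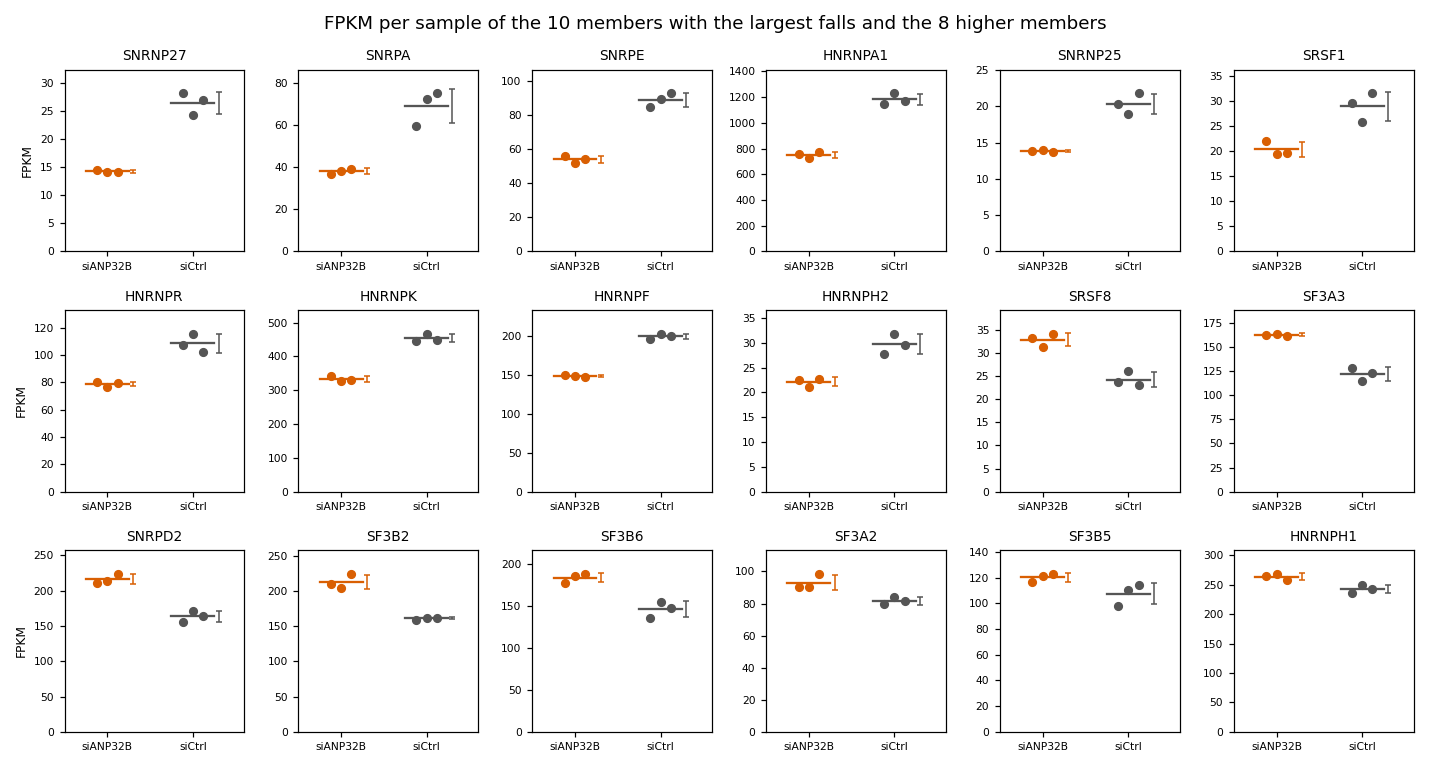
FPKM (vertical axis, from 0) in each of the 3 siANP32B samples (orange, left) and 3 siCtrl samples (grey, right) for the 10 genes with the largest falls and the 8 genes that rose; long horizontal lines are group means and bars beside them are S.D. (n = 3). In all 18 genes the points of the groups do not overlap, and HNRNPA1 stands between 726 and 770 FPKM in siANP32B samples, against 1146 to 1229 FPKM in siCtrl samples.

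The coding sequences of the hnRNP genes share short stretches with the siRNA target. The study's methods list siANP32B#1 and siANP32B#2, and the text does not name which was used for these samples. The letters GATGGCT, which pair with the seed (guide bases 2 to 8) of siANP32B#1, occur in the coding sequence of 12 of the 21 hnRNP genes and of 3 of the 41 other members (SF3B1, SNRPF and SNRNP200). The sites of ANP32B and of the hnRNP genes with the largest falls are shown, with those of HNRNPH1, which rose. Each line gives the 7 letters in capitals with 10 bases on either side, 5′ to 3′ on the gene's strand, and the GRCh38 position of the capitals in the GENCODE 29 transcript with the longest coding sequence; all lie in coding exons.
ANP32B, chr9:98005072-98005078, plus strand, exon 4: tacctacttgGATGGCTatgaccgaga
HNRNPA1, chr12:54282458-54282464, plus strand, exon 5: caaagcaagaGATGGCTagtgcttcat
HNRNPA1, chr12:54282847-54282853, plus strand, exon 7: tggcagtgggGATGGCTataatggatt
HNRNPA2B1, chr7:26195874-26195880, minus strand, exon 8: tggatttgggGATGGCTataatgggta
HNRNPR, chr1:23310867-23310873, minus strand, exon 11: cggctatgatGATGGCTatgcagtaag
HNRNPK, chr9:83971285-83971291, minus strand, exon 13: cagaatggcaGATGGCTtatgaaccac
HNRNPF, chr10:43387551-43387557, minus strand, exon 3: cagcgccaacGATGGCTtcgtgcggct
HNRNPF, chr10:43387128-43387134, minus strand, exon 3: tggcctcagtGATGGCTacggcttcac
HNRNPH2, chrX:101412316-101412322, plus strand, exon 2: tactgccaacGATGGCTtcgtccggct
HNRNPH1, chr5:179620955-179620961, minus strand, exon 3: cacggccaatGATGGCTttgtacggct
HNRNPH1, chr5:179618019-179618025, minus strand, exon 6: tggctataatGATGGCTatggatttgg

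The 12 hnRNP genes with these letters had a median log2 fold change of −0.41, with 9 lower and 1 higher, and the 9 without them a median of −0.06, with 4 lower and 0 higher. Among the other members the medians lay the other way, at 0.03 for the 3 with the letters and −0.10 for the 38 without. Over 11032 tested genes with an annotated 3′ untranslated region, 16.4% held the letters in the coding sequence, against 24.2% of the 62 members. Of those genes 38.1% with the letters were lower and 11.6% higher, against 27.0% and 17.6% without, and the medians were −0.15 and −0.06. The members share this stretch partly by descent: HNRNPA1, HNRNPA1L2 and HNRNPA2B1 are related, as are HNRNPF, HNRNPH1, HNRNPH2 and HNRNPH3. In 3′ untranslated regions the letters were found in SF3B3 and SRSF3 (3.23% of members, against 8.98% of the 11032 genes), which both fell. Of the 11032 genes, 40.6% with the letters there were lower and 10.7% higher, against 27.7% and 17.2% without. The call of SF3B3 was kept in 3 of 14 alternatives.

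The seed letters of the other siRNAs were counted in the same way. Those of siANP32B#2 (CTGAATT) occur in the coding sequence of 4 members, among which SF3A3 and SF3B2 rose and HNRNPR and SF3A1 fell, and in the 3′ untranslated region of 8 members, of which 5 were lower and 1 higher. Those of siCtrl (AGTACAA) occur in the coding sequence of 8 members with a median of −0.12, of which 4 were lower, and in the 3′ untranslated region of 5 members with a median of −0.31, of which 4 were lower and 0 higher. Over all these genes, 35.6% with the siANP32B#2 letters in the coding sequence were lower and 12.4% higher, against 28% and 17.1% without. For its letters in the 3′ untranslated region the shares were 36.4% and 12.8%, against 27.4% and 17.3% without. With the siCtrl letters in the coding sequence 29.9% were lower and 16.6% higher, against 28.7% and 16.6% without. For the siCtrl letters in the 3′ untranslated region the shares were 36.5% and 10.9%, against 28.2% and 17.1% without. The part of such sites in the falls was not tested.

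Among the SR genes, 7 of 11 fell, and the summed level was 1040 ± 12.9 FPKM in siANP32B samples, against 1170 ± 20.9 FPKM in siCtrl samples (88.9% of control). SRSF1, the founding SR protein, which promotes use of nearby splice sites, was at 22.1, 19.5 and 19.6 FPKM in siANP32B samples, against 29.6, 25.8 and 31.6 FPKM in siCtrl samples. This was the largest fall of an SR gene, at −0.48 ± 0.09 on the log2 scale (limma adjusted p = 0.00197). SRSF10 (−0.39), SRSF3 (−0.31), SRSF6 (−0.23), SRSF11 (−0.23), SRSF4 (−0.21) and SRSF7 (−0.20) also fell. SRSF4 and SRSF7 no longer passed under median-of-ratios scaling.

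SRSF8, which is related to SRSF2, rose against this direction. It was at 33.2, 31.3 and 34.2 FPKM in siANP32B samples, against 23.6, 26.1 and 23.0 FPKM in siCtrl samples (log2 fold change 0.43 ± 0.07, limma adjusted p = 0.000982), the largest rise of any member. SRSF5, the SR gene with the highest mean, was at 174, 193 and 192 FPKM in siANP32B samples, against 182, 183 and 178 FPKM in siCtrl samples. Its groups overlapped and the 95% interval of the log2 fold change was −0.07 to 0.14. SRSF2 (−0.00) and SRSF9 (−0.12) did not pass the test either.

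The U2 snRNP genes divided. SF3A3, SF3B2, SF3B6, SF3A2 and SF3B5 rose, SF3B1, SF3A1 and SF3B3 fell, and SF3B4 with the U2 proteins SNRPA1 and SNRPB2 did not pass the test. Their sum was 1484 ± 13.1 FPKM in siANP32B samples, against 1392 ± 21.8 FPKM in siCtrl samples (106.6% of control). All 11 of these genes lay above 50 FPKM on average, and 45.5% of them rose and 27.3% fell. Of the 2984 tested genes that abundant, 30.1% rose and 29.5% fell, and their sum was 105.6% of control. The share of falls and the sum of the U2 snRNP genes thus lay near this background. SF3A3, a subunit of the SF3A trimer, was at 163, 164 and 162 FPKM in siANP32B samples, against 128, 114 and 124 FPKM in siCtrl samples (log2 fold change 0.41 ± 0.05, limma adjusted p = 0.000179). SF3B2 was at 210, 205 and 224 FPKM in siANP32B samples, against 159, 162 and 162 FPKM in siCtrl samples (0.40 ± 0.04, limma adjusted p = 0.000121). SF3B6, the small subunit that contacts the branch site adenosine, was at 178, 186 and 189 FPKM in siANP32B samples, against 136, 155 and 147 FPKM in siCtrl samples (0.33 ± 0.05, limma adjusted p = 0.00107). In these 3 genes every siANP32B sample exceeded every siCtrl sample, and each fold was between 1.26 and 1.33.

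SF3A2 was at 90.5, 90.2 and 98.6 FPKM in siANP32B samples, against 79.4, 84.3 and 81.3 FPKM in siCtrl samples (log2 fold change 0.19 ± 0.05, limma adjusted p = 0.0159), a call that was lost without siANP32B 3, without siCtrl 1 and with siCtrl 1 as the only control. SF3B5 was at 116, 122 and 123 FPKM in siANP32B samples, against 98.2, 110 and 114 FPKM in siCtrl samples (0.16 ± 0.06, limma adjusted p = 0.04995), a call that was lost on leaving out any sample other than siCtrl 3. On the other side, SF3B1, the scaffold of SF3B and the target of splicing inhibitors, fell by 0.23 ± 0.04 on the log2 scale (limma adjusted p = 0.00215), and SF3A1 fell by 0.18. SF3B3, the most abundant of the U2 genes, was at 241, 247 and 238 FPKM in siANP32B samples, against 260, 254 and 269 FPKM in siCtrl samples (−0.11 ± 0.04, limma adjusted p = 0.0441). The calls of SF3A1 and SF3B3 were lost under median-of-ratios scaling. Without the calls lost in any alternative, SF3A3, SF3B2 and SF3B6 rose and SF3B1 fell.

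**Figure D4:**
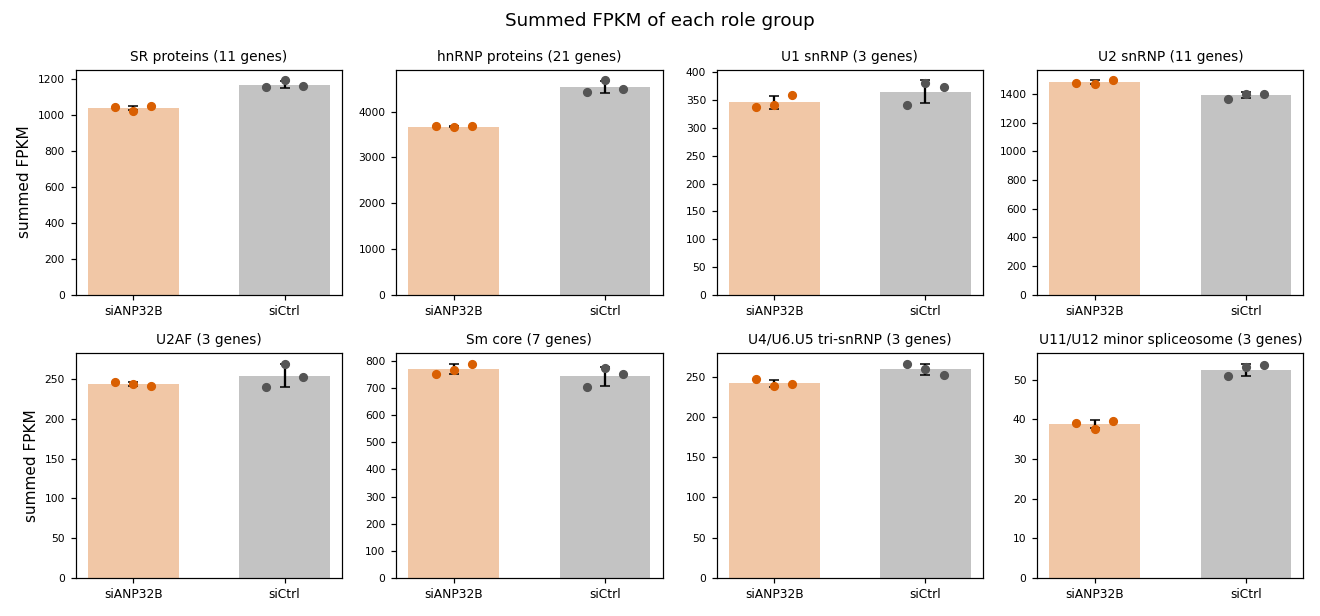
Summed FPKM (vertical axis, from 0) of each role group in the 3 siANP32B samples (orange, left) and 3 siCtrl samples (grey, right); bars are means and error bars S.D. (n = 3). The hnRNP sum was 80.9% of control and the U11/U12 sum 73.8%, and the U2 snRNP sum was 106.6%. The groups did not overlap in these 3 panels, nor in those of the SR genes (88.9%) and the tri-snRNP genes (93.3%).

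In the U1 snRNP, SNRPA, whose protein binds a stem loop of U1 RNA, fell and its partners did not pass the test. SNRPA was at 36.7, 38.4 and 39.4 FPKM in siANP32B samples, against 59.8, 72.8 and 75.3 FPKM in siCtrl samples (log2 fold change −0.84 ± 0.08, limma adjusted p = 7.69e-05), or 55.1% of control. SNRNP70, which anchors U1 to SR proteins, was at 196, 205 and 209 FPKM in siANP32B samples, against 188, 199 and 192 FPKM in siCtrl samples. Its 95% interval was −0.02 to 0.16, and under median-of-ratios scaling it was called higher (adjusted p = 0.0337). SNRPC was at a log2 fold change of 0.03.

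The 7 Sm core genes encode the ring on which snRNAs are assembled. SNRPE fell and SNRPD2 rose, and SNRPB, SNRPD1, SNRPD3, SNRPF and SNRPG had log2 fold changes between −0.00 and 0.04 and did not pass the test. SNRPE was at 56.0, 51.8 and 54.1 FPKM in siANP32B samples, against 84.7, 89.2 and 92.7 FPKM in siCtrl samples (log2 fold change −0.71 ± 0.05, limma adjusted p = 1.58e-05). SNRPD2 was at 211, 213 and 224 FPKM in siANP32B samples, against 155, 171 and 165 FPKM in siCtrl samples (0.40 ± 0.05, limma adjusted p = 0.000175). SNRPB, the most abundant of the ring, was at 204, 212 and 224 FPKM in siANP32B samples, against 198, 222 and 210 FPKM in siCtrl samples, with overlapping groups and a 95% interval of −0.09 to 0.14. Thus 2 genes of the ring moved in opposite directions. The summed level of all 7 was 103.7% of control, against 102.9% for all genes tested.

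Of the tri-snRNP genes, SNRNP27 had the largest fall of all 62 members. It was at 14.5, 14.1 and 14.2 FPKM in siANP32B samples, against 28.1, 24.3 and 26.9 FPKM in siCtrl samples (log2 fold change −0.84 ± 0.07, limma adjusted p = 3.24e-05), or 53.9% of control. SNRNP40, a WD-repeat protein of U5, fell by 0.28 on the log2 scale. SNRNP200, the helicase that unwinds U4 from U6, was at 186, 182 and 182 FPKM in siANP32B samples, against 184, 178 and 174 FPKM in siCtrl samples, with a 95% interval of −0.05 to 0.12.

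The 3 members that encode U11/U12 proteins (SNRNP25, SNRNP48 and SNRNP35) fell, and their sum was 38.8 ± 1.05 FPKM in siANP32B samples, against 52.6 ± 1.52 FPKM in siCtrl samples (73.8% of control). SNRNP25 was at 13.9, 13.9 and 13.7 FPKM in siANP32B samples, against 20.3, 19.0 and 21.8 FPKM in siCtrl samples (log2 fold change −0.52 ± 0.07, limma adjusted p = 0.000457). SNRNP48 fell by 0.35 on the log2 scale (limma adjusted p = 0.00504). SNRNP35, at 11.8, 10.7 and 13.2 FPKM in siANP32B samples, against 12.7, 16.7 and 16.1 FPKM in siCtrl samples, passed the test narrowly (limma adjusted p = 0.0493) with overlapping groups, and its call was kept in 5 of 14 alternatives. Of 4 further U11/U12 genes, whose symbols the rule does not take in, RNPC3 fell (−0.47, limma adjusted p = 0.017), and PDCD7 (−0.07), ZMAT5 (−0.19) and ZCRB1 (−0.03) did not pass the test.

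No U2AF gene passed the test. U2AF2, the large subunit that binds the polypyrimidine tract, was at 237, 236 and 232 FPKM in siANP32B samples, against 231, 260 and 243 FPKM in siCtrl samples, and its 95% interval was −0.16 to 0.05. U2AF1 and U2AF1L5 are near-identical copies that share reads, so their means of 4.62 and 4.78 FPKM, far below U2AF2, are uncertain.

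Promoters were read from RefSeq (GRCh38.p14, 250 bases before to 50 after each start). No promoter was matched for HNRNPA1, SRSF2, SF3B3, SNRPD1, U2AF1L5 and SNRNP35. Promoters were matched for the other 56 of the 62 members. The ETS core CCGGAAG, on either strand, was in 21 of them (37.5%), against 20.4% of 9411 promoters of tested genes and 10.3% of all 35116 promoters. It was in 5 of the 8 promoters of genes that rose (SF3A2, SF3A3, SF3B2, SF3B6 and SNRPD2) and in 7 of the 27 matched promoters of genes that fell (SNRNP27, SNRPE, HNRNPF, HNRNPLL, SRSF4, SF3A1 and HNRNPD). It was not found in the promoters of SRSF8, SF3B5 and HNRNPH1, which also rose. The median log2 fold change of the members was 0.02 with these letters and −0.22 without them. The hnRNP and SR members with the letters were HNRNPD, HNRNPF, HNRNPLL, SRSF4 and SRSF5, and the others encode snRNP or U2AF proteins. Medians by role were −0.22 for hnRNP, −0.21 for SR and 0.02 for U2 snRNP genes. The split by letters therefore cannot be told apart from that by role. Over the tested genes the median was −0.04 with the letters and −0.08 without. Of those genes 19.5% with the letters rose, against 15.5% without, and 26.4% with the letters fell, against 28.3% without. The promoters of the 2 genes with the largest rises (SRSF8 and SF3A3) and of the 2 with the largest falls (SNRNP27 and SNRPA) are shown 5′ to 3′ on the gene's strand, with CCGGAAG or its complement CTTCCGG and the CCAAT box (or its complement ATTGG) in capitals. SF3A3, which rose, and SNRNP27, which fell, hold the ETS letters, and SRSF8, which rose, and SNRPA, which fell, do not. The RefSeq starts differ from the GENCODE gene bounds. The window of SRSF8 ends at 95066926, before the GENCODE start of the gene at 95067197. Those of SF3A3, SNRNP27 and SNRPA lie wholly inside the GENCODE bounds of their genes. Which letters are found therefore depends on the start taken for each gene, and other starts were not tested. A match of letters is a description and not a bound site.
SRSF8, chr11:95066627-95066926, plus strand: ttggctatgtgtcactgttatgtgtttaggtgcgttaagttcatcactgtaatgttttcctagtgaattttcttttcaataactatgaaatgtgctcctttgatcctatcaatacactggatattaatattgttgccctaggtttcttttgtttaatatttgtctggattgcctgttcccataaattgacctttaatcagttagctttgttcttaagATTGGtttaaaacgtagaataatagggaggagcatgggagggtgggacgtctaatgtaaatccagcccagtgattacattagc
SF3A3, chr1:37989973-37990272, minus strand: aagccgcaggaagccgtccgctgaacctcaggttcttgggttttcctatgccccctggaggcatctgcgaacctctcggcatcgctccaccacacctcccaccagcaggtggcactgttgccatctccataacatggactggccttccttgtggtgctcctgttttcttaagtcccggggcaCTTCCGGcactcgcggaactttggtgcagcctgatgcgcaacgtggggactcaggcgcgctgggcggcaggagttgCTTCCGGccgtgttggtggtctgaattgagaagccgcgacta
SNRNP27, chr2:69893706-69894005, plus strand: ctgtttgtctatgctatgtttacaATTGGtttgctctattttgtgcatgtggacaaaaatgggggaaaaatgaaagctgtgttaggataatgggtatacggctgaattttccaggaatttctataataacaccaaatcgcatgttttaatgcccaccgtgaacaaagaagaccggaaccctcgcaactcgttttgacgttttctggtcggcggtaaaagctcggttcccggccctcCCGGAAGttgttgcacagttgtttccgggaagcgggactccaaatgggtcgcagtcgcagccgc
SNRPA, chr19:40750953-40751252, plus strand: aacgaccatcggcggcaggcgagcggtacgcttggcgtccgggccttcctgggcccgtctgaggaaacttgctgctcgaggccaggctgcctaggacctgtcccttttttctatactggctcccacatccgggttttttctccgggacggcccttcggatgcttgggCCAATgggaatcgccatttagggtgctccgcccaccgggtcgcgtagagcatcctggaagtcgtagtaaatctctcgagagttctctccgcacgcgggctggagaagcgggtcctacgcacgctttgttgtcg

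Of the other letters searched on both strands, the E-box CACGTG was in 16.1% of the 56 promoters, against 10.3% of tested genes, in 6 of the 27 promoters of members that fell and in 0 of the 8 of members that rose. Over the tested genes the E-box went the other way, with 22.8% higher among genes that hold it, against 15.5% among those that do not. CCAAT was in 42.9%, against 37.0%, TATAAA in 10.7%, against 5.20%, and the YY1 core AAGATGGC in 5.36%, against 5.80%. CCGGAAG and AAGATGGC can overlap by the letters AAG.

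Splicing genes outside the 62 were taken from 7 further lists. Among the 132 of these that were tested, 40 were lower and 19 higher (30.3% and 14.4%, against a background of 24.6% and 14.6%), with a median log2 fold change of −0.07, against −0.06 for all genes. Under median-of-ratios scaling 24 were lower and 30 higher (18.2% and 22.7%, against 18.4% and 19.3%), so the balance turned, and both sets of shares lay near the background. With siCtrl 1 as the only control 19 were lower and 12 higher. The counts that follow are without scaling unless it is named. Against the same background, the shares lower and higher were 36.4% and 18.2% for the tri-snRNP and LSm list. They were 27.3% and 13.6% for the PRP19 list, near the background. Among tri-snRNP and LSm genes (8 lower and 4 higher of 22), PRPF8, the protein at the catalytic centre, was at 156, 148 and 156 FPKM in siANP32B samples, against 314, 290 and 292 FPKM in siCtrl samples (log2 fold change −0.96, limma adjusted p = 1.72e-06). LSM2 (−0.79) and PRPF4 (−0.60) followed. Among the PRP19 complex and catalytic step genes (6 lower and 3 higher of 22), PPIE (−0.61), CRNKL1 (−0.52) and CDC40 (−0.39) fell. The genes that rose were TXNL4A, PRPF6, LSM7 and SART1 in the former list and PPIL1, PLRG1 and PRPF19 in the latter. Under median-of-ratios scaling the tri-snRNP and LSm list had 6 lower and 6 higher, and the PRP19 list 5 lower and 4 higher.

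Of 15 genes listed as U2-associated and branch site factors, which include the 4 further U11/U12 genes, 3 were lower and 1 higher: SMNDC1 (−0.58), RNPC3 and RBM17 (−0.20) fell, and PHF5A, itself a subunit of SF3B, rose by 0.23 on the log2 scale. The shares of this list, 20% lower and 6.67% higher, lay below the background of 24.6% and 14.6%. Under median-of-ratios scaling this list had 2 lower and 3 higher, and RBM17 no longer passed the test. Of SR-related and exon junction genes 8 were lower and 2 higher of 17 (4 and 4 under median-of-ratios scaling), led by the nuclear speckle protein SRRM2 at 878, 844 and 851 FPKM in siANP32B samples, against 1118, 1075 and 1058 FPKM in siCtrl samples (−0.34), with SRRM1 (−0.28) and TRA2A (−0.46). Of the kinases that phosphorylate SR proteins 3 were lower and 1 higher of 7 (1 and 1 under that scaling), with DYRK1A (−0.34) and CLK1 (−0.22) lower and CLK3 (0.19) higher. The call of CLK1 was lost under that scaling and without siANP32B 2, siANP32B 3, siCtrl 1 or siCtrl 2, and that of CLK3 without siANP32B 2 or siCtrl 3. Of 31 other RNA-binding regulators 10 were lower and 2 higher, including TAF15 (−0.53), TIAL1 (−0.33) and SFPQ (−0.29), and under that scaling 4 were lower and 5 higher. Without scaling, the shares lower and higher were 47.1% and 11.8% for the SR-related list and 42.9% and 14.3% for the kinases. For the other regulators they were 32.3% and 6.45%, against the background of 24.6% and 14.6%. With siCtrl 1 as the only control DYRK1A, CLK1, CLK3, TRA2A and RBM17 did not pass the test.

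The snRNP assembly genes, which load the Sm ring onto snRNA, gave 6 higher and 2 lower of 18 with a median of 0.13, and 7 higher and 2 lower with a median of 0.18 under median-of-ratios scaling. GEMIN5, the subunit that recognises snRNA, was at 60.0, 59.1 and 58.0 FPKM in siANP32B samples, against 43.7, 38.5 and 39.4 FPKM in siCtrl samples (0.53, limma adjusted p = 0.000125). CLNS1A, a chaperone of Sm proteins, rose by 0.40 on the log2 scale. GEMIN2, which holds the Sm pentamer, fell by 0.63.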

How the data were processed

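The authors deposited 1 table of FPKM values per sample; Bowtie2, RSEM and DESeq2 are listed with build GRCh38 in the submitters' processing notes, without versions. The study's methods do not name the test of its RNA sequencing beyond a corrected p-value. Members and lists were chosen with earlier results of these data known. All 13945 genes whose mean reached 1 FPKM were tested on log2(FPKM + 1) with limma 3.58.1 (trended variance; R 4.3.3), all 6 samples in 1 fit, and p-values were adjusted over all genes by Benjamini-Hochberg at 0.05. A fold change on this scale is understated for low genes. The procedure was tested on simulated data. Fragments were recovered as the smallest whole numbers that the FPKM steps allow, so true numbers may be larger by an integer multiple. Per-sample values are given for the called members with the largest changes (up to 10 in each direction), the most abundant member of each role and ANP32B; up to 3 called genes with the smallest p are named from each other list. Other values were named after being seen. Members ranged up to 27400 fragments per sample. No source read here states whether counting used strand, so overlapping and antisense genes cannot be told apart. Coordinates are from GENCODE 29 (GRCh38). Alternatives were another pseudocount, low-value filter, scaling, variance model or control set, a replicate block, and leaving out each sample.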

Additional observations from a re-analysis of the deposited data

How the results depend on the processing

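No called member reversed direction under any of the 14 alternatives. Of the 38 called members, 22 were called in every alternative that tested them, and of the 24 others 21 were called in none (the exceptions were SRSF9, SNRNP70 and SNRNP200). Leaving out single samples gave 5 to 7 members higher, 27 to 28 lower and a median log2 fold change of −0.173 to −0.111, with 1667 to 1755 genes higher and 2755 to 3052 lower overall; the 5 came without siCtrl 1, where SF3A2, SF3B5 and HNRNPH1 were lost. With siCtrl 1 as the only control, 17 members were lower, and 1209 genes rose and 1899 fell overall; this fit has fewer samples, and its lone control is assumed to vary like the siANP32B samples. Without the variance trend 5 members were higher. The member median was −0.0713 under median-of-ratios and −0.0677 under upper-quartile scaling, in which 9 calls were lost. The mean minimum of 5 FPKM tested 59 members and lost no call. Equal replicate numbers did not pair the samples (correlations of deviations 0.0215, −0.00634 and −0.00276). With the replicate block, 8 members were higher and 28 lower, and 2006 and 3310 genes overall; HNRNPUL2 and SF3B3 were lost. SF3B5, SF3B3, HNRNPUL2, SNRNP35, HNRNPD and HNRNPH1 had the least stable calls. Depth may limit HNRNPA1L2, U2AF1 and U2AF1L5, which had the fewest recovered fragments (up to 165 in a sample). For U2AF1 and U2AF1L5 these numbers are minimums.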

Other observations

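Pseudogenes of the same families were mostly silent: 17 of the 194 had a mean of at least 1 FPKM, of which 3 fell (HNRNPA1P7, HNRNPA1P10 and HNRNPA1P48) and 0 rose. The background was 24.6% lower over all genes tested, so 3 of 17 was no excess of falls. The 6 HNRNPA1 pseudogenes summed to 14.1, 12.6 and 11.5 FPKM in siANP32B samples, against 19.6, 19.4 and 20.6 FPKM in siCtrl samples. The groups did not overlap, as for HNRNPA1 itself, and reads of the parent gene assigned to these copies cannot be told apart from their own transcripts. The 4 SNRPG pseudogenes summed to 40.1, 56.4 and 40.3 FPKM in siANP32B samples, against 48.0, 50.7 and 48.0 FPKM in siCtrl samples, with overlapping groups.

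The ANP32B paralogue ANP32E was at 90.3, 89.2 and 93.2 FPKM in siANP32B samples, against 164, 155 and 157 FPKM in siCtrl samples (log2 fold change −0.80 ± 0.04, limma adjusted p = 3.54e-06), while ANP32A was at 134, 136 and 142 FPKM in siANP32B samples, against 136, 137 and 136 FPKM in siCtrl samples. A share of the values given for the splicing genes that goes with lower ANP32E cannot be told apart from that which goes with lower ANP32B.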
